A study of Mus musculus with 23 samples.

Results

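The epithelium of the lacrimal gland (LG) and the epithelium of the harderian gland (HG) of mouse embryos were compared at embryonic day 16.5 (E16.5), with 3 arrays of each, 6 of the 23 arrays of the series. The arrays were chosen by their titles, not by any measured value. All embryos were labelled with the background strain B6/CL and no treatment or allele was named, so the groups differed in tissue alone as far as the labels go. Epithelium and mesenchyme had been taken apart before RNA extraction. The 3 LG mesenchyme and 3 HG mesenchyme arrays of the same age were used here to mark genes that may have been carried over from mesenchyme, and the 3 arrays of E16.5 eyelid epithelium, a tissue that includes the ocular conjunctiva, give a further epithelium beside the glands. The labels do not say whether replicates came from separate embryos, litters or pools, so the spread behind the p-values may be technical. That spread was pooled within the groups of all 23 arrays, adult glands included. It is therefore not the spread of the LG and HG epithelial arrays alone.

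Both glands lie in the orbit and bud from the conjunctival epithelium into the surrounding mesenchyme. The lacrimal gland of the adult secretes the water, salts and proteins of tears under the control of nerves. The harderian gland of rodents secretes mainly lipids, and porphyrins in addition, onto the front of the eye. Buds of such glands are known to branch in response to fibroblast growth factors from the mesenchyme, and Wnt, BMP and Notch signals bear on where buds form and which cells they make.

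A level is given throughout as the log2 of the scanner's processed signal minus the 75th percentile of that array, so 0 is the brightness of the probe at that percentile. A difference is the mean LG level minus the mean HG level, and 1 is a 2-fold difference. A probe's brightness depends on the probe, so a level is compared between arrays and never between genes. Differences are followed by their standard error (SE) and by the limma p-value adjusted over the 16324 genes tested. Both rest on the pooled spread, so an SE can be far from what the LG and HG arrays of that gene show. The word "called" means an adjusted p under 0.05. If all probes of a gene failed to rise well above background in the dimmer epithelium, the fold is a bound and is written "at least". Some genes were well above background on only part of the arrays of the dimmer epithelium, so the size of their difference is uncertain. These were Dkk4, Lef1, Cxcl5, Stac, Tmem132b and Tmprss11g on 1 of 3 LG arrays, Dct and Serpinb10 on 2 of 3, Otor and Steap4 on 1 of 3 HG arrays, and Dcx and Dkk2 on 2 of 3. A few genes fell short in the brighter epithelium as well, so their differences lie between dim signals. Smad9 and Calcrl were well above background on no array of either epithelium. Wnt2b and Gdf6 were so on 1 of 3 HG arrays and Myog on 2 of 3, and all 3 genes on no LG array. Replicate 1 of every embryonic group lay on the same slide, and likewise replicates 2 and 3, so arrays with the same number can be subtracted within a slide.

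The 6 arrays were alike in quality. Between 54.2% and 61.7% of their spots were well above background, no spot was saturated, and arrays of a group correlated with r between 0.985 and 0.992. The median SD over genes was 0.209 in LG epithelium and 0.197 in HG epithelium. The label "epithelial" fitted the markers: all 30 epithelial markers listed (Epcam, Cdh1 and Krt8 among them) were measured, and their summed signal was between 1150% and 2720% of that of the matching mesenchyme in every replicate. Of these markers 1 was called, where 6.35% of all genes tested were called. It was Pkp1 (plakophilin of desmosomes), lower in LG with a difference of -1.27 (SE 0.32, adjusted p = 0.0205). That call was lost without LG replicate 2 or 3 or HG replicate 1 or 3, with adjusted p between 0.0631 and 0.102.

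In all, 484 genes were higher in LG epithelium (2.96% of those tested) and 553 were lower (3.39%), together 6.35%. At least 2-fold differences were called for 313 genes higher (1.92%) and 451 lower (2.76%). The 3 LG arrays and the 3 HG arrays did not overlap for all 484 of the higher genes and for 538 of the 553 lower ones, where 25.2% of all genes tested showed no overlap. Within slides, 483 of the 484 higher genes and 548 of the 553 lower genes differed in the called direction on each of the 3 slides. Arrays that do not overlap must differ in the same direction on every slide. For such genes this count is therefore no further test, and it can fall short only through a missing value. With the slide as a term of the fit the counts were 635 and 653, and 1024 of the 1037 genes were called again.

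A gene was marked as possibly carried over when the matching mesenchyme was at least 2-fold brighter than the epithelium in which the gene was the brighter. The mark fell on 70 of the 484 higher genes (14.5%), on 265 of the 553 lower genes (47.9%) and on 19% of all genes tested. The unmarked remainder, 414 genes higher in LG and 288 lower, is what the description below turns on. Large differences lay more on the HG side: 20 unmarked genes were at least 16-fold lower in LG by the fitted difference, which rests on dim signals where only a bound was measured, against 6 that were at least 16-fold higher. Among genes at least 4-fold apart, 110 of the 197 lower genes and 82 of the 94 higher genes were unmarked.

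**Figure D1:**
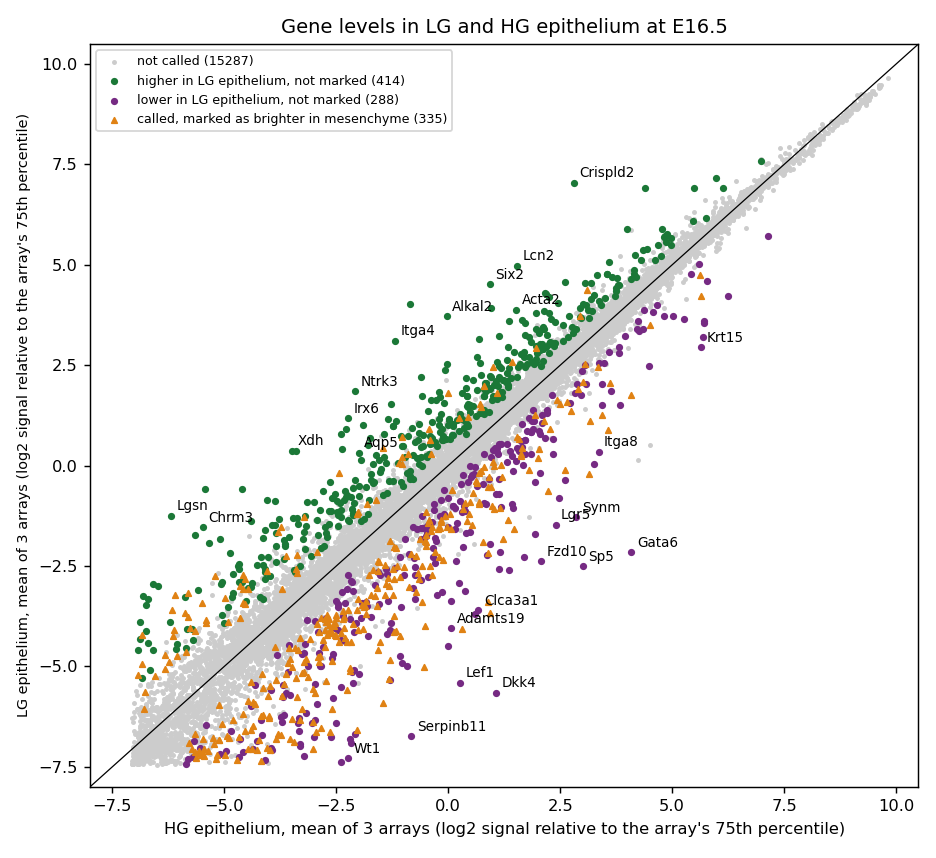
Mean level of each of 16324 genes in HG epithelium (x axis) and LG epithelium (y axis), as log2 signal relative to the array's 75th percentile, 3 arrays each; the line marks equal levels. Green and purple points are the 414 unmarked genes higher and the 288 unmarked genes lower in LG, orange triangles are called genes marked as brighter in mesenchyme, and Dkk4, Gata6, Serpinb11, Lef1 and Sp5 are labelled among the genes far below the line.

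Mesenchyme markers were not equally low in the HG replicates. The summed signal of 32 mesenchyme markers, in multiples of the 75th percentile, was 156, 138 and 178 in LG epithelium replicates 1 to 3 and 162, 273 and 326 in HG epithelium. As a share of the matching mesenchyme this was 5.76%, 6.31% and 6.77% for LG and 6.59%, 13.0% and 12.1% for HG. HG replicate 1 was thus close to the LG arrays, and HG replicates 2 and 3 lay above all the others. An exact two-sided permutation test of the 3 against 3 sums gave p = 0.2, where 0.10 is the smallest p that 3 against 3 arrays allow. Of the 32 markers 12 were called lower in LG and none higher, against 3.39% and 2.96% of all genes tested. The list's median was -0.76, and the medians within slides 1, 2 and 3 were -0.11, -1.14 and -1.06. Decorin (Dcn), for example, was at 4.48, 3.96 and 4.24 in LG and at 5.13, 5.68 and 6.11 in HG. Of the 12, 11 carry the mark. The other was the mesodermal homeobox gene Meox1 (-2.56, SE 0.31, adjusted p = 2.28e-05), whose means were 0.18 in HG epithelium and 0.30 in HG mesenchyme.

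**Figure D2:**
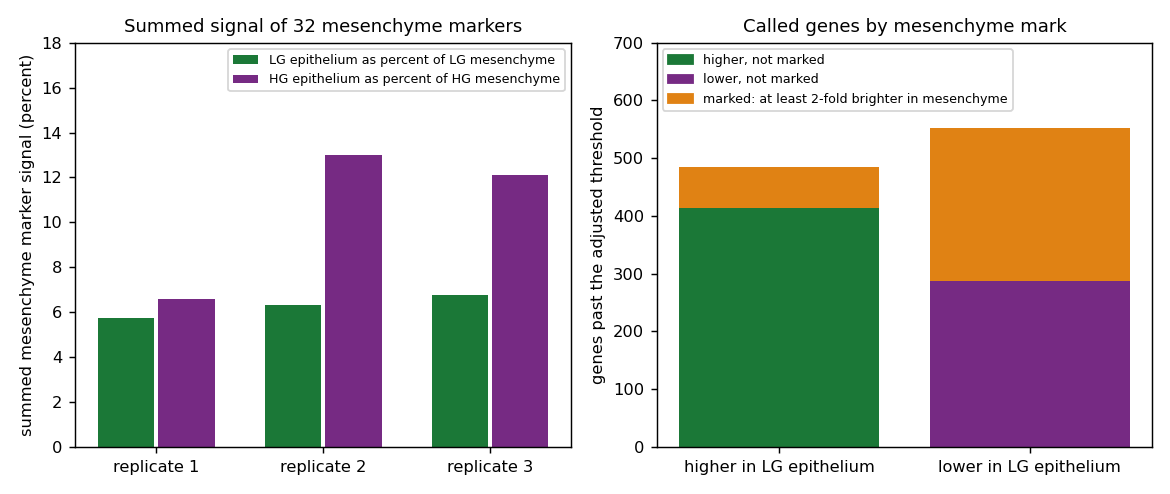
Left, summed signal of 32 mesenchyme markers in the epithelium as a percent of the matching mesenchyme, for each replicate of LG (green) and HG (purple); the LG values lie between 5.76% and 6.77% and the HG values between 6.59% and 13.0%. Right, number of called genes higher and lower in LG epithelium, with the 70 and 265 genes marked as at least 2-fold brighter in mesenchyme in orange.

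Markers of other cells were examined in the same way. Melanocyte markers were higher in HG, with summed signals of 3.0, 4.35 and 6.47 against 2.46, 2.23 and 2.78 in LG; 3 of 10 were called, Dct, Tyrp1 and Pmel, all marked. For Dct, an enzyme of melanin synthesis, the difference was -4.39 (SE 0.42, adjusted p = 1.35e-06), and Tyrp1 was at least 5.69-fold lower in LG. Of 17 endothelial markers 1 was called lower (Ramp2, marked) and of 15 skeletal muscle markers 1 (Myog, marked). Over all genes tested 3.39% were lower and 2.96% higher. Without HG replicate 1 the endothelial and muscle counts were 6 and 5. Myog, whose arrays overlapped, lost its call without LG replicate 2 or 3 or HG replicate 2 or 3, with adjusted p between 0.123 and 0.242. The counts of melanocyte and mesenchyme markers without HG replicate 1 were 6 and 14, and the lowest counts with another array left out were 2 and 7. None of 17 immune markers was called by limma, though 10 had an unadjusted p under 0.05 and the list's median was -0.91; the fit of the 18 embryonic arrays called 10 lower in LG, that of the 6 epithelial arrays 5, and without HG replicate 1 the count was 2. None of 11 erythroid, 8 Schwann cell, 4 lens and retina or 11 epidermal markers was called, with 0, 1, 0 and 2 of them at an unadjusted p under 0.05. Of 11 neuronal markers Dcx alone was called, higher in LG (3.18), and its further probes, below the filter, gave -0.40 and 0.77. What part carried-over cells have in the differences of single genes was not tested, and in tissue RNA fewer cells of a type and less RNA per cell cannot be told apart.

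Many genes of the Wnt response, those that canonical Wnt signalling is known to switch on, were lower in LG epithelium. Of 19 measured, 10 were lower and none was higher, where 3.39% of all genes tested were lower. The list's median difference was -1.94, against 0.0046 over all genes, and the medians within slides were -1.61, -1.98 and -1.74. Of the 10, 9 were unmarked, and the marked one was Wif1, a secreted Wnt inhibitor. With each array left out in turn the count stayed at 9 or 10.

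Dkk4, a secreted Wnt inhibitor that Wnt signalling itself induces in epithelial buds, had the lowest difference of any unmarked gene. Its level was -5.96, -5.74 and -5.27 on the LG arrays and 1.26, 0.81 and 1.15 on the HG arrays. The difference was -6.73 (SE 0.50, adjusted p = 7.91e-08). Lef1, a transcription factor that carries beta-catenin onto DNA, was at -5.14, -5.85 and -5.24 in LG and at 0.26, 0.11 and 0.41 in HG. The difference was -5.67 (SE 0.41, adjusted p = 5.9e-08). Sp5, a zinc finger factor and direct Wnt target, stood at -2.66, -2.37 and -2.50 in LG and at 3.04, 2.75 and 3.24 in HG, a difference of -5.52 (SE 0.37, adjusted p = 2.6e-08). For each of these 3 genes every HG array lay far above every LG array. In eyelid epithelium all 3 were nearer to HG, at means of 1.70 for Dkk4, 3.07 for Lef1 and 1.90 for Sp5.

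Lgr5, a receptor for R-spondins that marks stem cells of several epithelia, was at -1.47, -1.83 and -1.13 in LG and at 2.79, 1.91 and 2.50 in HG (difference -3.87, SE 0.29, adjusted p = 9.07e-08). Its relative Lgr6 was at least 8.10-fold lower in LG (adjusted p = 0.000292). Unlike the 3 genes before, Lgr5 was low in eyelid epithelium too, at a mean of -1.24, which is within the range of the LG arrays. Lgr4, the third receptor of this family, differed by -0.63 (adjusted p = 0.0348), a call lost without LG replicate 2 or 3 or HG replicate 1 or 3, with adjusted p between 0.0979 and 0.155.

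The feedback inhibitors followed. Nkd1, which acts on Dishevelled inside the cell, differed by -2.98 (SE 0.40, adjusted p = 5.95e-05). Axin2, the scaffold of the beta-catenin destruction complex, was at -3.43, -4.73 and -3.17 in LG and at -1.28, -2.57 and -1.35 in HG. Replicate 2 was the lowest in both epithelia, and the difference was -2.04 (SE 0.37, adjusted p = 0.00147; 3.37e-05 with the slide as a term). Apcdd1, an inhibitor at the cell membrane, differed by -1.94 (adjusted p = 2.81e-05), and Tcf7, a relative of Lef1, by -1.12 (adjusted p = 0.0474; 0.0554 with the slide as a term). The 9 members not called included Rnf43 (-1.0, adjusted p = 0.118), Znrf3 (-0.80, adjusted p = 0.125) and Notum (0.67, adjusted p = 0.232), the last of which had its highest value on LG replicate 3.

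**Figure D3:**
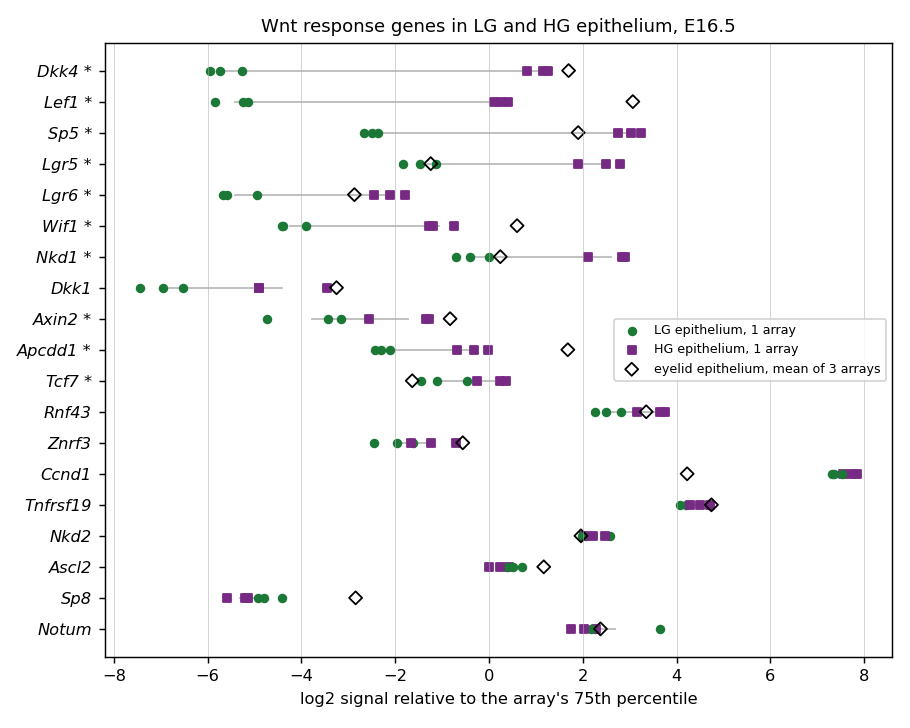
Level of the 19 measured Wnt response genes on each LG (green circles) and HG (purple squares) epithelial array and their mean in eyelid epithelium (open diamonds), as log2 signal relative to the array's 75th percentile; asterisks mark the 10 called genes. Dkk4, Lef1 and Sp5 show the widest gaps, and Ccnd1, Tnfrsf19, Nkd2, Ascl2, Sp8 and Notum show none that was called.

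Because these genes moved together, the letters before their start sites were read for the sites that TCF and LEF factors bind. The promoters are those of RefSeq on GRCm38.p6, 250 bases before each start site, searched on both strands for the motifs CTTTGAA or CTTTGAT or CTTTGTA or CTTTGTT, none of which overlaps another within a match. At least 1 match lay in 13.3% of the genes tested that have a window (1715 of 12893), in 5 of the 13 measured Wnt response genes with a window, and in 2 of the 7 called ones. The 2 were Sp5 and Lef1, shown here because they are also among the genes with the widest gaps; capitals mark the matches and both windows are on the plus strand. In the Sp5 window, chr2:70474673-70474922, the matches begin 222 and 104 bases before the start site, and in that of a downstream Lef1 start, chr3:131156044-131156293, the match begins 147 bases before it.
Sp5: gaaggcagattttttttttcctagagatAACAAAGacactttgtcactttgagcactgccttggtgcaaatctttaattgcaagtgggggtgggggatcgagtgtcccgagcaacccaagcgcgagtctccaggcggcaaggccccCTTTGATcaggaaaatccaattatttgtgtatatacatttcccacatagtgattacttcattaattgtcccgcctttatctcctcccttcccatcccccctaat
Lef1: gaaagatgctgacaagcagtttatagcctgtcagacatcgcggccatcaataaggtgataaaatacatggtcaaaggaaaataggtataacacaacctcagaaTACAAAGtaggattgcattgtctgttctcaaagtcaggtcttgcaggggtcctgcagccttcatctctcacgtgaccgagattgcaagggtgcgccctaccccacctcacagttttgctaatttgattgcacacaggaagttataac
A match describes the letters only. The windows of Axin2, Lgr6, Nkd1, Tcf7 and Wif1 held no match, nor did the other 3 Lef1 windows. Dkk4, Lgr5 and Apcdd1 were not analysed here for motifs.

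Upstream of these targets, 3 of 23 Wnt receptors and effectors were lower in LG and none was higher, against 3.39% and 2.96% of all genes tested. The list's median was 0.11, so its members did not move down as a group. The 3 were Fzd10, Lgr4 and Fzd4. Fzd4 was marked and lost its call without LG replicate 1 or 3 or HG replicate 2 or 3, with adjusted p between 0.0591 and 0.15. The most different was Fzd10, a Frizzled receptor, at -1.84, -2.74 and -2.55 in LG and at 2.41, 1.87 and 1.95 in HG (-4.46, SE 0.32, adjusted p = 5.8e-08). Of 16 Wnt ligands 3 were lower in LG, Wnt2b, Wnt9a and Wnt11, all marked as brighter in HG mesenchyme. Among 14 secreted modulators, Sfrp1, which binds Wnt proteins outside the cell, was higher in LG. It stood at 4.45, 4.36 and 4.12 in LG and at 2.21, 2.47 and 1.82 in HG (2.14, SE 0.22, adjusted p = 2.4e-06). Dkk2 was higher in LG and Frzb lower, and both were marked.

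BMP genes differed mainly where the mesenchyme was brighter. Of 11 BMP response genes 4 were lower in LG, Id1 (-2.71, adjusted p = 8.7e-05), Id3 (-2.67, adjusted p = 8.99e-06), Smad9 and Atoh8, and all 4 were marked. Smad9 was not well above background on any array of either epithelium. Hey1, which is also on the Notch list, was higher. Of 27 ligands and inhibitors 6 were lower and 2 higher. Both BMP counts stand against 3.39% of all genes tested that were lower and 2.96% that were higher. The sole unmarked one of the 6 was Chrdl1, a secreted BMP antagonist. Chrdl1 was at -4.55, -4.49 and -4.42 in LG and at -0.08, -0.05 and 0.08 in HG, a difference of -4.47 (SE 0.22, adjusted p = 6.82e-10). Bmp4 (-2.69), Bmp3 (-2.93), Gdf6 and Grem1, the other genes named among the 6, were marked; a further Bmp4 probe, below the filter, gave -0.17.

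Of the transcription factors, Gata6 had the second lowest difference among unmarked genes. This zinc finger factor, best known from endoderm and heart, was at -1.81, -2.90 and -1.76 in LG and at 4.54, 3.60 and 4.13 in HG (-6.25, SE 0.48, adjusted p = 1.16e-07). The mesenchyme of both glands was bright as well, at means of 3.13 for LG and 3.18 for HG, below HG epithelium at 4.09. Eyelid epithelium, at a mean of -3.21, was on the side of LG epithelium. Gata3, known from hair follicle and mammary epithelium, went the other way, at 3.02, 2.82 and 3.06 in LG and 1.16, 1.24 and 1.61 in HG (1.63, SE 0.29, adjusted p = 0.00117). Wt1, best known from kidney and mesothelium, was at least 7.48-fold lower in LG (adjusted p = 2.44e-08); HG replicate 2, at -3.29, lay below HG replicates 1 and 3, at -1.58 and -1.85. Klf15, a Krüppel-like factor, differed by -2.04 (SE 0.39, adjusted p = 0.00213).

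Of 33 forkhead factors none was higher in LG and 4 were lower, 3 of them unmarked. Of all genes tested 2.96% were higher and 3.39% lower. Foxa1, a factor of endodermal and glandular epithelium, was at least 2.67-fold lower (adjusted p = 0.00953) and lost its call without LG replicate 2 (0.0629) or HG replicate 3 (0.053). Of 46 other homeobox factors 2 were higher and 3 lower, against 2.96% and 3.39% of all genes tested. Pitx1 differed by -3.10 (SE 0.88, adjusted p = 0.0415) with no overlap. Whichever of the 6 arrays was left out the call was lost, with adjusted p between 0.0744 and 0.156. In the fits of the 18 embryonic and of the 6 epithelial arrays alone, its adjusted p was 8.16e-06 and 0.00378. Irx6, of the Iroquois family, was at 1.08, 1.23 and 1.23 in LG and at -2.62, -1.97 and -2.10 in HG (3.41, SE 0.52, adjusted p = 0.000239), while Irx4 of the same family differed by -1.92 (adjusted p = 0.00734; 0.0589 without LG replicate 3).

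Homologues of the fly genes sine oculis, eyes absent and dachshund work together in sensory placodes and many budding organs. Of 14 measured genes of these families and of the Pax family 3 were higher in LG and 3 lower. Over all genes tested the shares were 2.96% and 3.39%. Six2 was at 4.51, 4.37 and 4.66 in LG and at 0.10, 1.29 and 1.39 in HG (3.59, SE 0.44, adjusted p = 2.34e-05). HG replicate 1 was the lowest, and Six2 in eyelid epithelium lay between the glands at 2.96. Six4 differed by 0.91 (SE 0.16, adjusted p = 0.00131), and Dach1 by -1.22 (SE 0.22, adjusted p = 0.00141).

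The regulators best known from lacrimal development did not pass the threshold, which does not show that their levels were equal. Pax6, the master factor of eye surface and lacrimal buds, was at 2.26, 2.20 and 2.05 in LG and at 1.80, 1.79 and 1.60 in HG, a difference of 0.43 (SE 0.47, adjusted p = 0.871). Sox10, needed for acinar buds, differed by 0.65 (adjusted p = 0.272) and Barx2 by 1.19 (adjusted p = 0.206). Neither overlapped between the glands, and in a fit of the 6 epithelial arrays alone, where the spread of the other groups does not enter, their adjusted p was 0.0234 and 0.00986. Foxc1 differed by 1.04 (adjusted p = 0.0621; 0.00767 with the slide as a term). Sox9, needed for the first lacrimal bud, differed by -0.48 (adjusted p = 0.385) with overlapping arrays. None of 16 Sox genes was called, 5 of them at an unadjusted p under 0.05 and 2 in the 6-array fit, and none of 19 Hox genes, 2 of them at an unadjusted p under 0.05.

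Several secreted proteins were higher in LG. Of 29 measured genes of the lacrimal secreted protein list 4 were higher in LG and none lower, all 4 unmarked, where 2.96% of all genes tested were higher; the list's median was 0.04. Crispld2, a secreted cysteine-rich protein, was at 7.00, 6.98 and 7.16 in LG and at 2.08, 3.60 and 2.72 in HG (4.25, SE 0.36, adjusted p = 3.86e-07). Lipocalin 2 (Lcn2), which binds bacterial siderophores and is a protein of tears, was at 4.90, 4.99 and 5.04 in LG and at 1.18, 2.21 and 1.22 in HG (3.44, SE 0.30, adjusted p = 4.42e-07). Otor, a small secreted protein, differed by 4.0 (SE 0.40, adjusted p = 2.43e-06), and Nupr1, a stress-response nuclear protein kept on this list, by 2.24 (SE 0.22, adjusted p = 2.18e-06). Crispld2, Lcn2 and Otor were low in eyelid epithelium as well, at -0.36, -0.76 and -6.03. Nupr1 was not, with means of 3.62 in eyelid, 3.59 in LG and 1.35 in HG epithelium. The LG arrays were tight and the HG arrays spread for Crispld2, Lcn2 and Otor, with HG replicate 2 the highest for all 3.

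Several genes of the dialogue with nerves were higher in LG. The muscarinic acetylcholine receptor Chrm3, through which parasympathetic nerves drive tear secretion, was at -1.42, -1.35 and -1.83 in LG. It was at -6.10, -5.31 and -5.03 in HG, not well above background, so the difference was at least 9.16-fold (adjusted p = 3.47e-06). Of 17 neurotrophic factors and receptors 4 were higher in LG and 1 lower, against 2.96% and 3.39% of all genes tested. Ntrk3, the receptor of neurotrophin 3, was at 2.25, 1.68 and 1.60 in LG and at -2.79, -1.35 and -2.08 in HG (3.92, SE 0.32, adjusted p = 2.17e-07). Its ligand Ntf3 was lower in LG, with a difference of -1.05 (adjusted p = 0.02, and between 0.0678 and 0.0759 without LG replicate 1 or 3 or HG replicate 1 or 3). Ntrk2, the receptor of BDNF, differed by 1.49 (SE 0.20, adjusted p = 5.46e-05), with 2 further probes between -0.26 and 2.27. Artemin (Artn), a ligand of the GDNF family, differed by 1.30 (SE 0.19, adjusted p = 0.00014).

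Growth factor ligands made in LG epithelium included the neuregulins, which signal through ErbB receptors. Nrg2 was at 2.42, 1.98 and 2.22 in LG and at -0.66, -0.49 and -0.65 in HG (2.81, SE 0.22, adjusted p = 1.24e-07), and Nrg1 differed by 1.79 (SE 0.29, adjusted p = 0.000417). Lrig1, an inhibitor of ErbB receptors, was higher too (0.75), and Hbegf was lower (-1.14, adjusted p = 0.0196, and between 0.0577 and 0.0684 without any array but HG replicate 2). These are 3 of 16 EGF family genes higher and 1 lower, against 2.96% and 3.39% of all genes tested. Alkal2, the ligand of the receptor kinases ALK and LTK, was at 3.48, 3.50 and 4.18 in LG and at -0.85, 0.39 and 0.34 in HG (3.76, SE 0.44, adjusted p = 1.28e-05). Of 15 FGF response genes 1 was called, Shisa2 (1.40, SE 0.20, adjusted p = 0.000137), which also restrains FGF and Wnt receptors. Of 19 Notch pathway genes Hey1, a target of Notch, was called: it was at 3.96, 3.87 and 3.72 in LG and at 2.09, 2.13 and 2.18 in HG (1.72, SE 0.26, adjusted p = 0.000253).

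Some genes of contractile cells were higher in LG. Myoepithelial cells wrap acini and squeeze them. Of the 10 listed myoepithelial genes 3 were called, all higher in LG and unmarked, where 2.96% of all genes tested were higher. Smooth muscle actin (Acta2) was at 4.20, 4.01 and 3.42 in LG and at 0.65, 2.28 and 1.62 in HG (2.36, SE 0.34, adjusted p = 0.000116). Transgelin (Tagln) differed by 2.08 (SE 0.25, adjusted p = 1.57e-05) and calponin (Cnn1) by 1.33 (adjusted p = 0.0138), the latter lost without LG replicate 1 (0.0694) or HG replicate 1 (0.0844). The other 7 members, Myh11, Mylk, Oxtr, the keratins and Trp63, were not called. The list's summed signal was 113, 99.5 and 104 in LG and 85.8, 97.0 and 104 in HG. Smooth muscle cells and pericytes express the same contractile genes, and the means in LG mesenchyme were 3.79 for Acta2 and 2.97 for Tagln, against 3.88 and 4.27 in LG epithelium; their part in the result was not tested.

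Water and salt transport differed gene by gene. Of 36 genes of fluid secretion 4 were higher in LG and 5 lower, against 2.96% and 3.39% of all genes tested. Aqp5, the water channel of the acinar cell's apical face, was at 0.53, 0.24 and 0.18 in LG and at -1.88, -1.89 and -2.22 in HG (2.31, SE 0.30, adjusted p = 4.96e-05). Aqp3, a water and glycerol channel, was at -1.35, -2.21 and -2.53 in LG and at 0.49, 0.38 and 0.09 in HG (-2.35, SE 0.47, adjusted p = 0.00306). Eyelid epithelium was at -6.34 for Aqp5 and 5.88 for Aqp3, beyond the gland with the lower and the higher level. Kcnq1, a potassium channel, differed by -2.12 (SE 0.33, adjusted p = 0.000268) and Ttyh1, a chloride channel family member, by -2.15 (SE 0.24, adjusted p = 7.72e-06). Clca3a1 (-4.28) and Clca3a2 (-4.29), of the calcium-activated chloride channel regulator family, are close copies whose probes may bind both messengers, and their near-equal values count as 1 observation.

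The surfaces that epithelium turns to its matrix differed in both directions. Of 26 laminin and basement membrane genes 6 were higher in LG, all unmarked, and 5 were lower, 2 of them unmarked. Over all genes tested 2.96% were higher and 3.39% lower. Lama1 was at 5.16, 4.88 and 5.20 in LG and at 3.45, 3.41 and 3.88 in HG (1.5, SE 0.32, adjusted p = 0.00571). The type IV collagen pair Col4a1 and Col4a2, the network of the basement membrane, differed by 1.41 (SE 0.15, adjusted p = 6.2e-06) and 1.37 (SE 0.17, adjusted p = 3.66e-05), with Lama4 (1.29) and Lamb1 (0.88) beside them. Fras1, of the Fraser complex that anchors embryonic epithelium, differed by -2.25 (SE 0.19, adjusted p = 2.79e-07). The related gene Frem3 differed by -2.83 (SE 0.50, adjusted p = 0.000957). Frem1, also of the Fraser complex, differed by -2.82 and was marked.

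Integrins, the receptors for that matrix, showed a similar split. Itga4 was at 3.18, 3.03 and 3.12 in LG and at -1.85, -0.51 and -1.18 in HG (4.29, SE 0.46, adjusted p = 5.47e-06). Itga8, a receptor known from kidney budding, was at 0.17, 0.25 and 0.63 in LG and at 3.58, 3.07 and 3.42 in HG (-3.01, SE 0.22, adjusted p = 7.91e-08). Eyelid epithelium was low for Itga8 at -2.43 and lay with HG for Itga4 at -1.24. Of 20 integrins measured these 2 were the unmarked calls, and Itgb3 (higher) and Itga1 (lower) were marked. Over all genes tested 2.96% were higher and 3.39% lower. Among other matrix genes, Col18a1 (-2.16), Col14a1 (-2.12) and the metalloprotease inhibitor Timp3 (-2.31, SE 0.29, adjusted p = 2.6e-05) were lower in LG, and the anchoring fibril collagen Col7a1 was higher (1.55, SE 0.29, adjusted p = 0.0021). Adamts19, a secreted metalloprotease, was at -4.04, -4.41 and -3.70 in LG and at 0.47, -0.30 and 0.02 in HG (-4.11, SE 0.21, adjusted p = 6.82e-10).

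**Figure D4:**
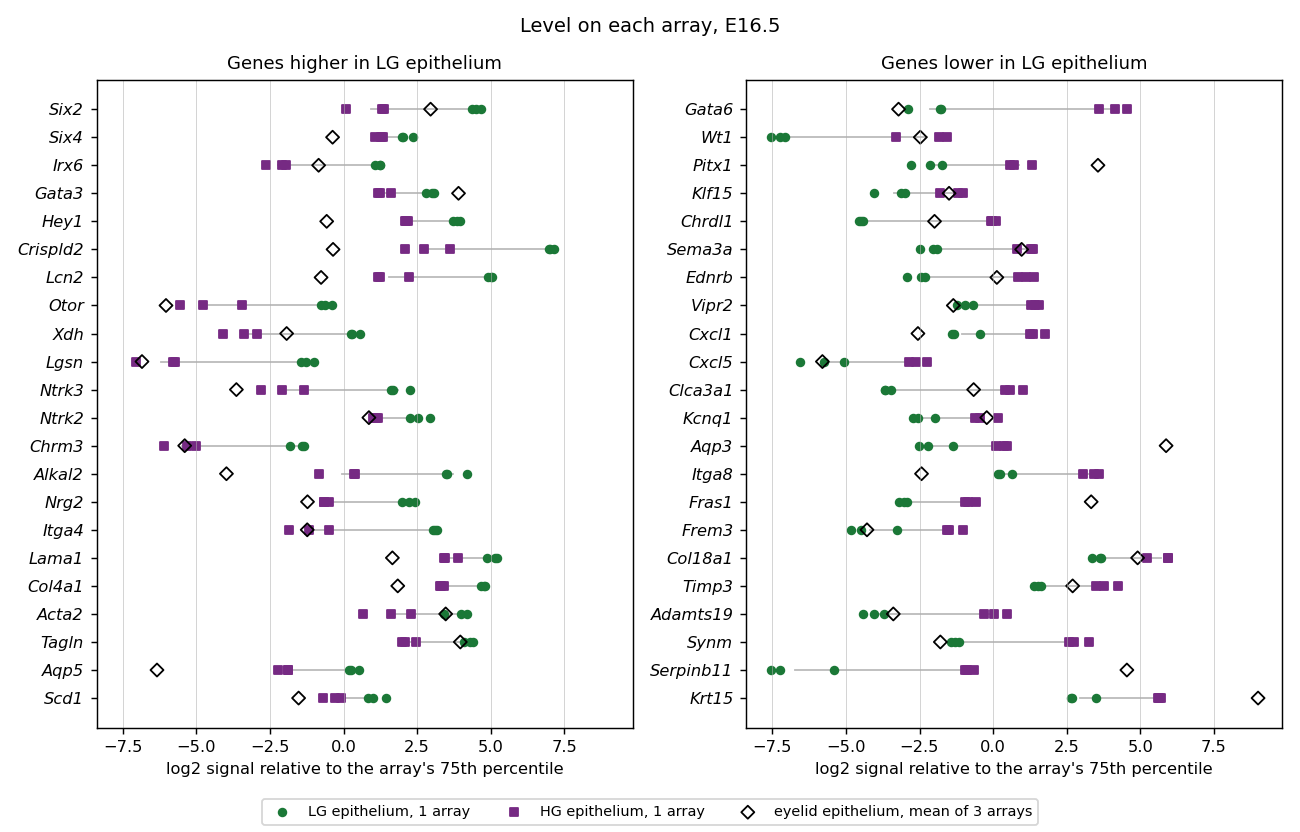
Level on each LG (green circles) and HG (purple squares) epithelial array of genes described in the text as higher (left) and lower (right) in LG, with the mean of eyelid epithelium (open diamonds), as log2 signal relative to the array's 75th percentile. The LG and HG arrays of each gene shown do not overlap, with wide gaps for Crispld2, Itga4, Alkal2 and Gata6 and narrow ones for Six4 and Klf15.

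HG epithelium was higher for several signals to other cells. Of 19 chemokine genes 6 were lower in LG, 4 of them unmarked, and 1 was higher (Cx3cl1, a call lost without LG replicate 1 or 3 or HG replicate 2 or 3, with adjusted p between 0.0751 and 0.149), where 3.39% and 2.96% of all genes were called in those directions. Cxcl5 was at -5.75, -6.56 and -5.06 in LG and at -2.25, -2.86 and -2.62 in HG (-3.21, SE 0.42, adjusted p = 4.94e-05), and Cxcl2 was at least 4.38-fold lower in LG (adjusted p = 0.000172). Cxcl1, which with them attracts neutrophils, differed by -2.51 (SE 0.64, adjusted p = 0.0207, and between 0.0505 and 0.0911 without LG replicate 1 or 2 or HG replicate 2 or 3). Immune markers, 10 of 17 of which the fit of the 18 embryonic arrays called lower in LG, had a summed signal that was 25.0, 22.2 and 24.8 in LG and 29.2, 34.6 and 38.5 in HG. Sema3a, a repellent of nerve endings, was at -1.92, -2.47 and -2.05 in LG and at 1.35, 0.81 and 1.28 in HG (-3.29, SE 0.29, adjusted p = 5.73e-07). It was the sole unmarked gene among 7 guidance genes lower in LG, of 65 measured.

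Of 33 receptors for neurotransmitters and peptides 2 were higher in LG (Chrm3 and Vipr1) and 5 lower (Ednrb, Vipr2 and the marked Npy1r, Calcrl and P2rx7), against 2.96% and 3.39% of all genes tested. Ednrb, an endothelin receptor, was at -2.93, -2.45 and -2.32 in LG and at 1.40, 0.85 and 1.13 in HG (-3.69, SE 0.31, adjusted p = 3.36e-07). Ednrb is also a gene of melanocytes, whose markers were higher in HG, and its means were 1.12 in HG epithelium and 0.65 in HG mesenchyme. Vipr2, a receptor of vasoactive intestinal peptide, was at -1.22, -0.96 and -0.67 in LG and at 1.42, 1.29 and 1.57 in HG (-2.38, SE 0.32, adjusted p = 6.09e-05). The other receptor of that peptide, Vipr1, differed by 0.72 (adjusted p = 0.0474), a call lost without any array but HG replicate 1, with adjusted p between 0.0807 and 0.256.

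The remaining unmarked genes of large difference belong to few common groups. Lower in LG were Serpinb11 (at least 19.9-fold, adjusted p = 8.29e-05) and Serpinb10 (-3.87, SE 0.57, adjusted p = 0.000171), serpins of the clade that acts mostly inside cells, and both were also high in eyelid epithelium, at 4.55 and 4.12. The intermediate filament protein synemin (Synm) was at -1.30, -1.42 and -1.15 in LG and at 3.26, 2.57 and 2.75 in HG (-4.15, SE 0.28, adjusted p = 3.16e-08). The mitochondrial malic enzyme Me3, the metalloprotease Mep1a, Ccn6 and the transcript 2700046A07Rik were at least 7.80-, 7.70-, 8.33- and 6.68-fold lower in LG; the further Me3 probes gave -3.51 and -0.44. Kcnq5 and Gabra5, channel subunits best known from neurons, were at least 5.77- and 3.8-fold lower, and Tmem132b and the airway-type protease Tmprss11g differed by -4.08 and -4.02. A further Kcnq5 probe, below the filter, gave -0.45, and those of Tmem132b gave -1.93 and -1.31. Keratin 15 (Krt15), a basal cell keratin at 9.0 in eyelid epithelium, differed by -2.70 (SE 0.75, adjusted p = 0.0384). That call was lost whichever array was left out, with adjusted p between 0.0584 and 0.133. It was 0.00179 in the fit of the 18 embryonic arrays and 0.00269 in that of the 6 epithelial arrays.

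Higher in LG were Fam163a (at least 17.8-fold, adjusted p = 3.29e-06), lengsin (Lgsn, known from the lens; at least 11.2-fold, adjusted p = 2.15e-05) and Rag1 (at least 8-fold, adjusted p = 2.08e-06). Rag1, the recombinase of lymphocytes, has a further probe below the filter that gave -0.02, so the gene's probes disagree. Xanthine dehydrogenase (Xdh) was at 0.25, 0.30 and 0.55 in LG and at -4.11, -2.95 and -3.39 in HG (3.85, SE 0.30, adjusted p = 1.28e-07). The adenylyl cyclase Adcy8, the potassium channel subunit Kcnmb1, kininogen 1 (Kng1), Stac2 and Ugt8a were at least 6.99-, 3.43-, 3.32-, 2.81- and 2.65-fold higher. The further Kng1 probe, below the filter, gave -0.41. Cldn22 differed by 3.76 (SE 0.95, adjusted p = 0.0199), a call lost without any array but HG replicate 2 (adjusted p between 0.0517 and 0.0748). Its adjusted p was 1.04e-05 in the fit of the 18 embryonic arrays and 0.00179 in that of the 6 epithelial arrays. The close relative Cldn24 was at least 1.79-fold higher, and probes for the pair may not tell them apart.

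The largest marked differences are given for completeness. Lower in LG and marked were Cdh13 (-4.61), Tbx1 (at least 8.65-fold), Stac (-4.46), Cpne4 (at least 12.6-fold) and Dct. Higher in LG and marked were Adamts16 (at least 2.86-fold), Ambn (at least 1.43-fold), Zfp385b (at least 2.96-fold), Klf14 (at least 2.21-fold) and Steap4 (2.47). All 10 were called, and 1 further Adamts16 probe, below the filter, gave -0.10 while 1 further Zfp385b probe gave 0.20.

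Genes of lipid and porphyrin synthesis, for which the adult harderian gland is known, were examined next. Of 50 genes of fatty acid and acylglycerol synthesis 6 were higher in LG and 1 lower, with a median of 0.21, where 2.96% and 3.39% of all genes tested were called in those directions; the fit of the 18 embryonic arrays called 11 higher and 3 lower. Scd1, which desaturates fatty acids, was at 0.83, 1.0 and 1.45 in LG and at -0.70, -0.28 and -0.08 in HG (1.45, SE 0.24, adjusted p = 0.000619). Agps, of ether lipid synthesis, differed by 0.91 (SE 0.18, adjusted p = 0.00292). Mogat1 and Dgat2, of triglyceride synthesis, differed by 1.67 and 0.81. Both calls were lost whichever array was left out, with adjusted p between 0.0568 and 0.103 for Mogat1 and between 0.0773 and 0.226 for Dgat2. In the fit of the 18 embryonic arrays their adjusted p was 0.026 and 0.0031. In that of the 6 epithelial arrays it was 0.0028 and 0.041. None of 13 porphyrin genes was called by limma (1 at an unadjusted p under 0.05). None of 34 genes of the secretory machinery of the endoplasmic reticulum was called, 3 of them at an unadjusted p under 0.05 and 2 higher with the slide as a term. Of 28 cell cycle genes Ccne1 alone was called (0.63, adjusted p = 0.0448, and between 0.0635 and 0.213 without any array but HG replicate 3).

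**Figure D5:**
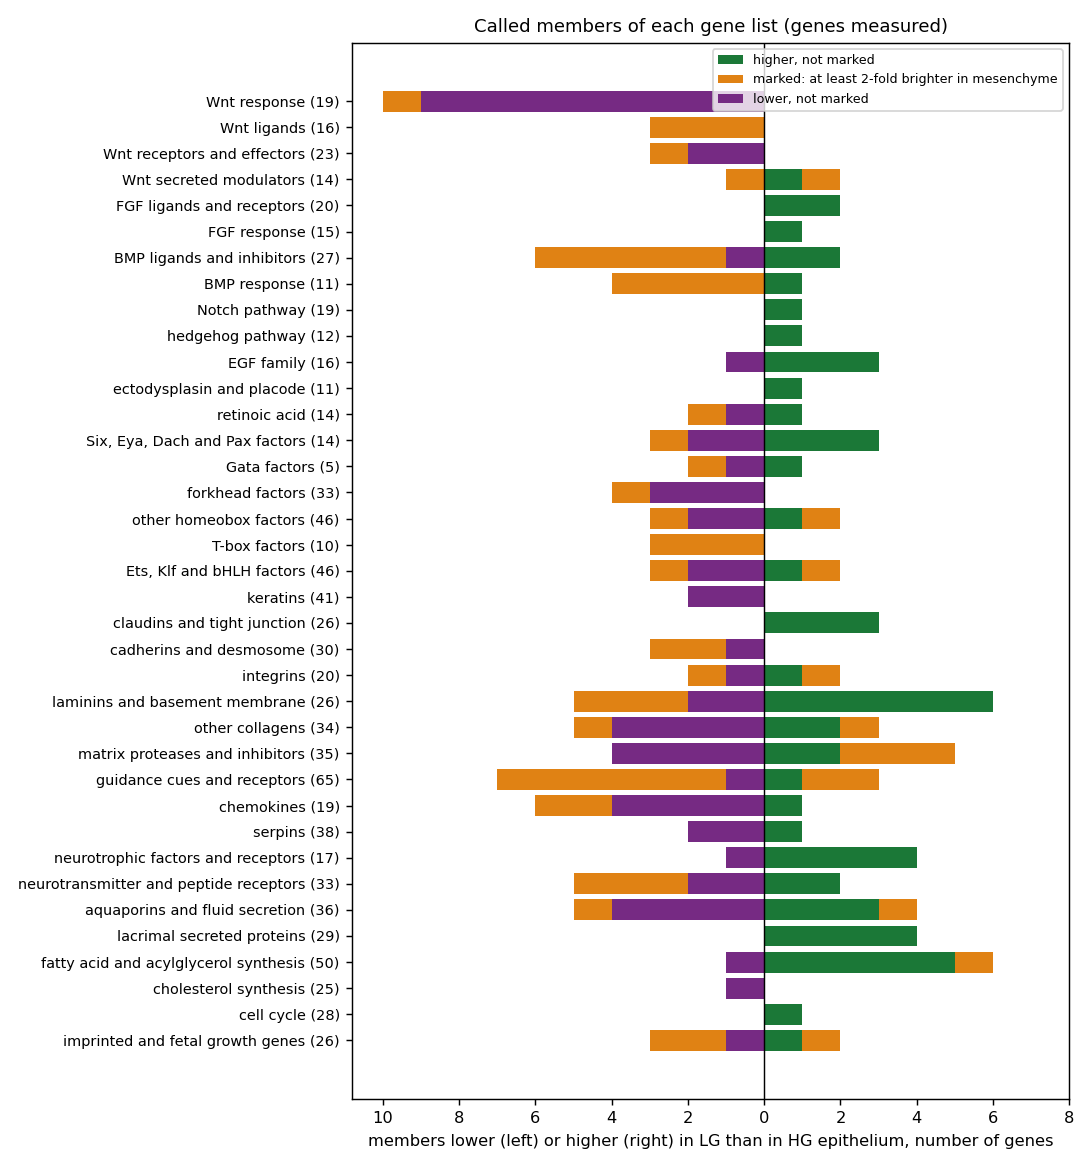
Number of called members of each gene list with at least 1 call, lower (left, purple) or higher (right, green) in LG than in HG epithelium, with the members marked as brighter in mesenchyme in orange; the number of genes measured stands in brackets. Of 19 Wnt response genes 10 are lower, 1 of them marked, and of 26 laminin and basement membrane genes 6 are higher and 5 lower. Over all genes tested 2.96% are higher and 3.39% lower.

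Eyelid epithelium lay more often nearer to HG for genes higher in LG, and about evenly for genes lower in LG. For the 414 unmarked genes higher in LG, the eyelid mean was above the midpoint of the LG and HG means for 138 (33.3%) and below it for 276. For the 288 unmarked genes lower in LG it was above the midpoint for 150 (52.1%) and below for 138. These are descriptions of means of 3 arrays with no test, and the eyelid arrays entered the fit's estimate of spread and the probe filter.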

How the data were processed

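RNA was hybridised to 1-colour (Cy3) Agilent arrays, per the labels' protocols. Spot brightness was deposited as linear intensity, which the scanner software had background-subtracted and detrended, per the file headers, by Agilent Feature Extraction 11.0.1.1 on slide 1 and 11.5.1.1 on slides 2 and 3; the submitters' processing notes name 11.5.1.1 alone. The 75th percentile of the 6 arrays lay between 475.4 and 857.2 intensity units, and the number of arrays, not depth, limits precision.

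Control spots and outlier spots were left out (6 gene values of the 6 arrays are missing and those fits use the rest), spots of a probe averaged, and log2 taken relative to each array's 75th percentile. Of 55681 probes 27509 were named through RefSeq accessions and 28172 stay unnamed. Probes had to be well above background on all arrays of some group, and the brightest such probe stood for its gene. limma 3.58.1 (R 4.3.3) fitted all 23 arrays in 8 groups. On simulated data for this comparison, over 16324 genes, it recovered 52% of 2-fold and 92% of 4-fold changes with 8 false calls. A bound sets the brighter mean against the higher of the dim probe's signal and the lowest signal well above background.

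Numbers pair the samples: deviations of same-numbered LG and HG arrays correlated at 0.171, 0.578 and 0.537, and number equals slide. Named were the 20 highest and 20 lowest unmarked called genes with no overlap, up to 5 called members in each direction of each list, 6 regulators and 5 marked genes in each direction, of which a few genes are not reported here; Nkd1, Axin2, Apcdd1, Tcf7, Wif1, Rnf43, Znrf3, Notum, Dcn and Lamb1 were named after their values were seen. Members and lists were chosen with earlier results of these data known. Alternatives changed the arrays fitted, the slide term, scaling, background correction, values, filter, probe rule and mark, and left out each array.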

Additional observations from a re-analysis of the deposited data

How the results depend on the processing

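None of the 202 named genes changed direction under any alternative that was run. Where the LG and HG arrays do not overlap, leaving out 1 array cannot turn the direction. Fits of fewer groups, and the removal of marked genes, keep the same LG and HG means. For these settings the unchanged direction is therefore no further test. Fewer genes were higher than lower, but this order turned with the 6 epithelial arrays alone (556 and 524), without HG replicate 3 (375 and 369) and without marked genes (414 and 288). The 484 genes higher and 553 lower became 856 and 909 when the 18 embryonic arrays alone were fitted, and 1028 of the 1037 called genes were called there too. Scaling to the median gave 258 higher and 372 lower. With the replicate block (slide as a term) the counts were 635 and 653. Each array left out in turn gave between 348 and 375 higher and between 369 and 599 lower, the last without HG replicate 1, where 355 were higher; without HG replicate 3 the lower count was the 369. Of the 197 named genes past the threshold, 57 lost their call without at least 1 array and 140 kept it whichever array was left out. Named genes that lost the call numbered 46 with the 6 epithelial arrays alone, 45 with median scaling, 24 with normexp (run on the median spot signal, since the files hold no mean), 20 with quantile normalization, 18 with no filter, 8 with the mean over probes, 4 with the replicate block, 3 with the embryonic arrays and 0 with the authors' matrix values. Genes not well above background in one epithelium have a bound in place of a fold, 43 of the higher and 49 of the lower.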
